A study of Saccharomyces cerevisiae with 24 samples.

Results

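Glycogen and trehalose are the reserve carbohydrates of Saccharomyces cerevisiae, and 10 genes of their metabolism are described here, of 6814 genes whose read counts could be joined across the deposited tables. The 10 were chosen by identifier. The choice was made with levels of these genes across the 8 groups already known, so those levels and the calls below describe the 10 genes and are not independent evidence about them. RNA came from 2 strains of background GA74-1A. Both lack the chromosomal PSD1 and PSD2 genes, which encode phosphatidylserine decarboxylases, the enzymes that make phosphatidylethanolamine from phosphatidylserine. The mutant (LG, psd2deltapsd1delta::Psd1-LGS/AAA) carries a Psd1 whose self-cleavage site LGS is replaced by alanines, which stops its maturation. The control (WT, psd2deltapsd1delta::Psd1-3XFLAG) carries a working, FLAG-tagged Psd1 in pRS305, a vector with the LEU2 marker, so neither strain is an unmodified wild type. The labels name 1 construct per strain and no clone numbers. Each strain was grown in YPD with 2 mM ethanolamine (LGE, WTE), in YPD with 0.5 mM lyso-phosphatidylethanolamine and the detergent tergitol at 1% (LGL, WTL), in YPD with 2 mM choline (LGC, WTC), or in plain YPD with 2% dextrose (LGD, WTD), and harvested at an OD600 of 0.5 to 0.7. No group had tergitol alone. Each of the 8 groups had 3 libraries.

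Yeast stores glucose as glycogen, a branched polymer, and as trehalose, a disaccharide that also protects proteins and membranes. Both pathways start from UDP-glucose. Cells growing fast on glucose hold little of either, and the genes are known to be induced as glucose runs low and under stress, partly through the transcription factors Msn2 and Msn4, which bind the stress response element AGGGG. In the trehalose pathway TPS1 (YBR126C, chrII:488905-490392, minus strand) encodes the synthase that makes trehalose 6-phosphate and TPS2 (YDR074W, chrIV:593893-596583, plus strand) the phosphatase that removes its phosphate. In the glycogen pathway the glycogenin genes GLG1 (YKR058W, chrXI:552770-554620, plus strand) and GLG2 (YJL137C, chrX:154985-156127, minus strand) encode the primers of the polymer. GSY1 (YFR015C, chrVI:174265-176391, minus strand) and GSY2 (YLR258W, chrXII:660716-662833, plus strand) encode the glycogen synthases that extend it, and GLC3 (YEL011W, chrV:133120-135234, plus strand) the enzyme that branches it. GAC1 (YOR178C, chrXV:667860-670241, minus strand) encodes a subunit that targets the phosphatase Glc7 to glycogen synthase, which activates the synthase. GPH1 (YPR160W, chrXVI:861306-864014, plus strand), for glycogen phosphorylase, and GDB1 (YPR184W, chrXVI:902044-906654, plus strand), for the debranching enzyme, serve breakdown. The coordinates are those of the deposited tables and match the R64 assembly.

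Library totals ran from 16044470 to 20946936 counts. All 10 genes were in all 7 deposited tables, passed the filter on low counts in every comparison, had from 452 (GLG1) to 65294 (GPH1) counts in a library, and were overlapped by no other gene of the tables. Levels are given in CPM, counts scaled to a library of 1e+06. Replicates 1 and 2 resembled each other more than replicate 3 in 8 of 8 groups (r across genes of 0.989 to 0.994 between them, and of 0.955 to 0.988 with replicate 3). In 7 of 8 groups replicate 3 was closest to a library of another group. LGD replicate 3 was closest to LGE replicate 1 (r = 0.985, against 0.975 at best in LGD), and LGE replicate 3 to LGD replicate 2 (r = 0.967, against 0.956 at best in LGE). Groups were kept as labelled. Whether these libraries carry the right label cannot be decided from the sources used here, and this bears on every comparison that uses LGD or LGE. The labels do not say whether replicates came from separate cultures, and p-values measure only the spread between these libraries, which may be technical. Beside each comparison of the 10 genes below, the differences within replicates 1 and 2 and within replicate 3 are also given apart. In the check of the strains, PSD1 had 469, 479 and 701 CPM in LGD, against 888, 864 and 835 CPM in WTD. LEU2 had 753, 725 and 968 CPM in LGD, against 2030.2, 2031 and 2414 CPM in WTD. PSD2 was not analysed here.

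The stretches upstream of 3 of the genes are shown because they span the range of the AGGGG element among the 10: TPS1 holds the most matches, GLC3 holds a pair, and GSY1, the gene with the widest range of levels, holds none. The bases are those from 300 to 151 before the start codon, on the gene's strand, read from the RefSeq R64 genome at chrII:490543-490692 (minus strand) for TPS1, chrV:132820-132969 (plus strand) for GLC3 and chrVI:176542-176691 (minus strand) for GSY1, with capitals marking AGGGG or its complement CCCCT.
TPS1: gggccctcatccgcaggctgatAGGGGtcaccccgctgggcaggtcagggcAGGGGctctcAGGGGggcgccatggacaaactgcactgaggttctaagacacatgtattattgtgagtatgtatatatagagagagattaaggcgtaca
GLC3: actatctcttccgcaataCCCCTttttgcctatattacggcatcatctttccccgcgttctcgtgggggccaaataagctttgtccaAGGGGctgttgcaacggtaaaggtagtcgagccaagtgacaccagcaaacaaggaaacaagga
GSY1: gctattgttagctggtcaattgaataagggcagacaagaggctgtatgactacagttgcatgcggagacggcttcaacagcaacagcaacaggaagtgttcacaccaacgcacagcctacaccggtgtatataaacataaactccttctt
In the 300 bases before the start codon, AGGGG occurred on either strand upstream of 5 of the 10 genes, and of 22.1% of 6394 genes with such a window. Those 5 were TPS1 with 3 matches, GLC3 with 2, and GSY2, GDB1 and GLG2 with 1 each. Windows with 2 or more matches made up 3.52% of all windows. AGGGAT, the core of the post-diauxic shift element that Gis1 binds, was upstream of GLG1 and TPS2, 2 of the 10, and of 9.21% of genes. A core of the site of Mig1, a repressor active on glucose (CCGGGG, or CTGGGG, or GCGGGG, or GTGGGG) was upstream of GLC3, GDB1 and TPS1, 3 of the 10, and of 12.5% of genes. No AGGGG match in the 10 windows overlapped a match of the other motifs. A match is only a string of letters, and GSY1, GPH1 and GAC1 had none of these in the window.

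Levels per gene length spanned a wide range among the 10. Per kilobase and in plain medium, TPS1 was the highest, with 566 ± 433 CPM per kilobase in LGD and 1514 ± 131 in WTD (SD, n = 3 each). GSY2, the main glycogen synthase, had 132 ± 138 in LGD and 892 ± 34.1 in WTD, and its paralog GSY1 63.4 ± 67.7 in LGD and 412 ± 39.2 in WTD. The glycogenin genes held the lowest levels, GLG1 in LGD and GLG2 in WTD. GLG1 averaged 18.6 ± 11.1 in LGD and 97.2 ± 6.52 in WTD, while GLG2 averaged 26.8 ± 2.45 in LGD and 46.8 ± 1.35 in WTD. The spread in LGD was of the size of the mean for several genes, which the separate replicate values below show.

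The range over the 24 libraries also differed between genes. The highest library of GSY1 had 23.6 times the CPM of the lowest, that of GPH1 20.1 times, of GSY2 18.4 times and of GLC3 16.9 times. GLG2 varied least, by 2.06 times. By group mean, WTD was the highest group for TPS1, TPS2, GLG1, GLG2, GSY1 and GSY2, and LGL for GLC3, GPH1, GDB1 and GAC1. LGD was the lowest group for 7 of the 10, WTE for GLC3 and GAC1, and WTC for GPH1. Neighbouring groups in these orders mostly overlapped. GLC3, GLG1, GSY1, GSY2, GDB1 and GAC1 each had 1 pair of neighbours with no overlap of their libraries, and the other genes had 0.

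With a supplement, the group means were as follows, each as mean ± SD over 3 libraries. TPS1 averaged 1086 ± 573 CPM in LGE, 2144 ± 572 in LGL and 1227 ± 396 in LGC, against 1668 ± 152 in WTE, 1525 ± 19.2 in WTL and 1458 ± 406 in WTC. TPS2 averaged 997 ± 605 CPM in LGE, 2116 ± 538 in LGL and 1081 ± 120.3 in LGC, against 1248 ± 90.6 in WTE, 1443 ± 191 in WTL and 1503 ± 141 in WTC. The trehalose genes were highest in LGL among the supplemented groups. For GLG1 the means were 64.0 ± 36.1 CPM in LGE, 161 ± 40.3 in LGL and 52.6 ± 39.8 in LGC, against 56.5 ± 3.15 in WTE, 96.8 ± 41.6 in WTL and 102 ± 10.9 in WTC. GLG2 averaged 33.6 ± 3.96 CPM in LGE, 51.1 ± 6.24 in LGL and 37.1 ± 10.4 in LGC, against 43.2 ± 5.77 in WTE, 41.2 ± 8.75 in WTL and 44.4 ± 3.18 in WTC. The SD of GLG1 in LGE and LGC was over 0.5 of its mean, and that of GLG2 was below 0.3 of its mean in each of these groups. For GSY1 they were 244 ± 176 CPM in LGE, 729 ± 204 in LGL and 240.5 ± 260.0 in LGC, against 222 ± 34.4 in WTE, 459.7 ± 207 in WTL and 450.2 ± 30.2 in WTC. GSY2 had means of 552 ± 383 CPM in LGE, 1477 ± 478 in LGL and 537 ± 516 in LGC, against 561 ± 24.6 in WTE, 912 ± 431 in WTL and 954 ± 68.1 in WTC. GLC3 had means of 378 ± 274 CPM in LGE, 866 ± 239 in LGL and 269 ± 273 in LGC, against 149 ± 18.4 in WTE, 407 ± 222 in WTL and 396 ± 81.7 in WTC. These 3 genes of polymer building were highest in LGL, and of these groups LGC had the widest spread relative to its mean. GAC1 averaged 188 ± 116 CPM in LGE, 312 ± 64.5 in LGL and 152 ± 168 in LGC, against 64.8 ± 5.16 in WTE, 118 ± 46.4 in WTL and 120.2 ± 16.6 in WTC. For GPH1 the means were 1063 ± 767 CPM in LGE, 2650.2 ± 895 in LGL and 1482 ± 1158 in LGC, against 1182 ± 308 in WTE, 824 ± 90.8 in WTL and 795 ± 460.1 in WTC. GDB1 had means of 329 ± 192 CPM in LGE, 816 ± 330.5 in LGL and 306 ± 227 in LGC, against 285 ± 40.4 in WTE, 260.5 ± 70.9 in WTL and 251 ± 31.8 in WTC. The regulator and both breakdown genes were highest in LGL as well.

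**Figure D1:**
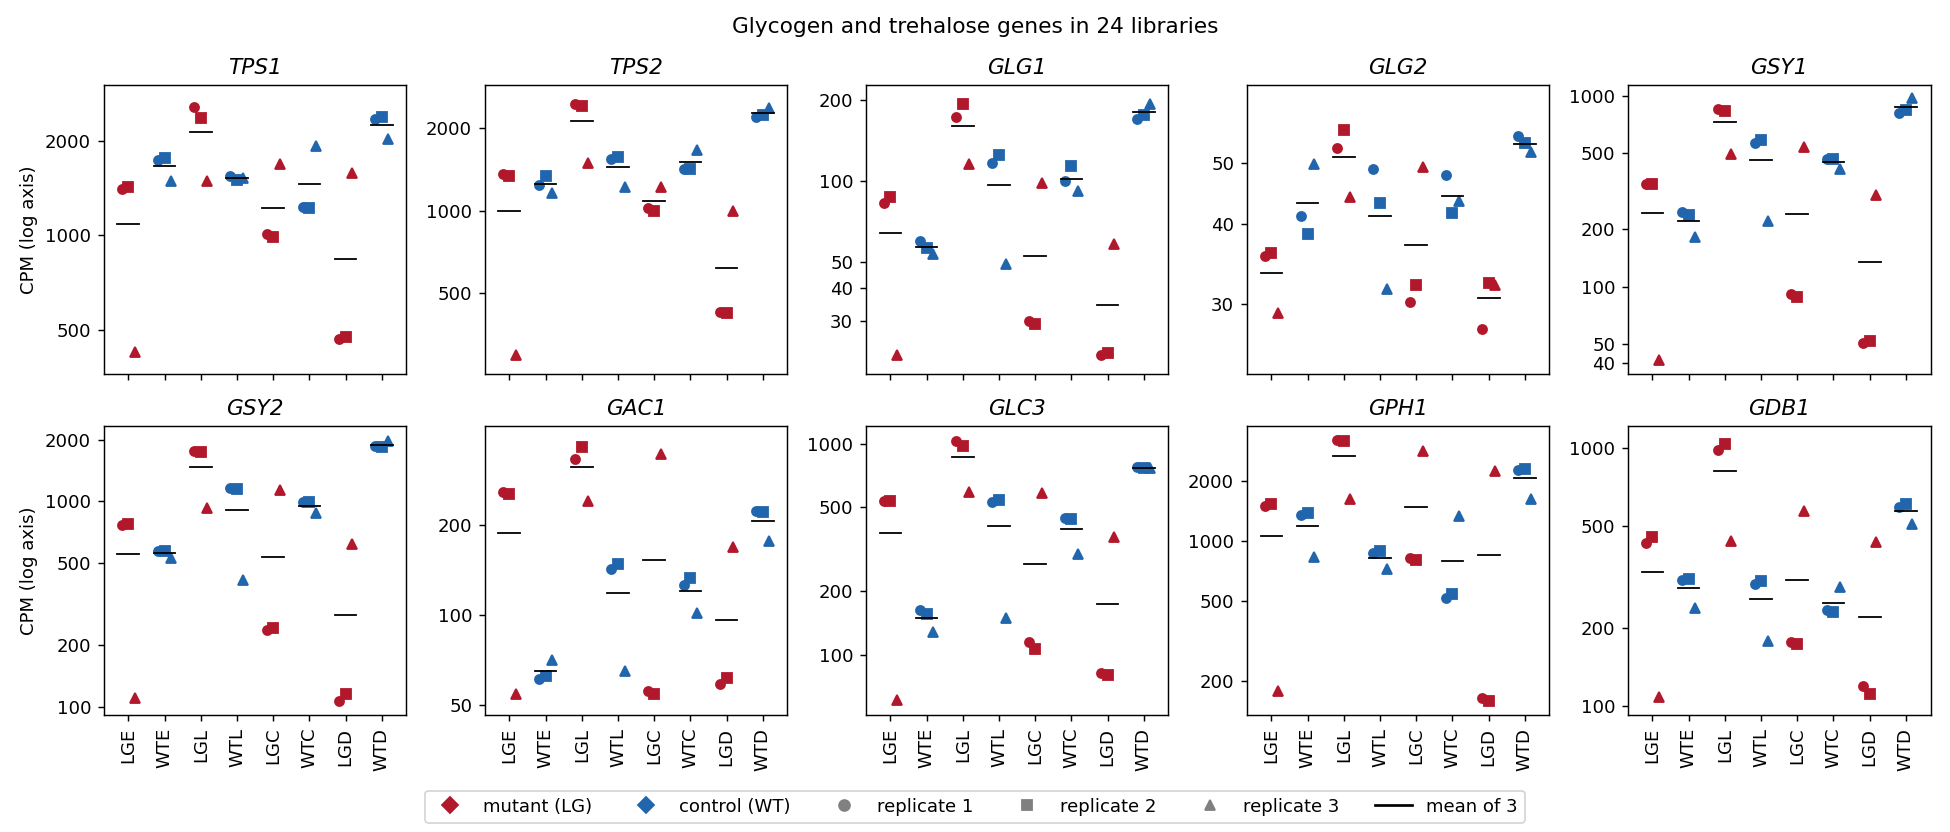
CPM (log axis) of each gene in 24 libraries, by group, with the mutant in red left of the control in blue, a symbol for each replicate and a line at the mean of 3. In LGD the replicates 1 and 2 of GSY2 lie at 107 and 115 CPM and replicate 3 at 619 CPM, all below the WTD libraries at 1855, 1843 and 1973 CPM.

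The mutant was compared with the control in plain medium to ask what the loss of Psd1 maturation does to transcripts without a supplement. Of the 10 genes, 6 were lower in LGD than in WTD (TPS2, GLG1, GLG2, GSY1, GSY2 and GLC3), in edgeR's quasi-likelihood test with Benjamini-Hochberg adjustment over 6168 genes, at an adjusted p under 0.05, while 17.3% of all genes were called lower. All 10 had a negative log2 fold change, with a median of -1.68 over the 10 (range -2.78 to -0.83) and of 0.0098 over all genes tested. For 9 of the 10 every LGD library lay below every WTD library, as for 24.5% of all genes. GPH1 was the exception. In RNA of whole cultures, a change in every cell and a change in the share of cells that carry a transcript cannot be told apart.

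In the trehalose pathway, TPS2 had 428, 423 and 997 CPM in LGD, against 2204, 2235 and 2375 CPM in WTD. The LGD libraries were all below WTD, replicate 3 less so than the others. TPS2 fell by 1.91 ± 0.35 on the log2 scale (SE; adjusted p 0.00780 by edgeR). TPS1 had 467, 474 and 1586 CPM in LGD, against 2347, 2383 and 2029 CPM in WTD. The groups did not overlap, but its log2 fold change of -1.45 ± 0.48 was not called (adjusted p 0.0543 by edgeR).

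Both glycogenin genes were lower. GLG1 had 22.4, 22.7 and 58.0 CPM in LGD, against 171, 176 and 194 CPM in WTD (log2 fold change -2.41 ± 0.38, adjusted p 0.00470 by edgeR). GLG2 had 27.4, 32.3 and 32.0 CPM in LGD, against 55.0, 53.6 and 51.9 CPM in WTD (-0.83 ± 0.10, adjusted p 0.00193). The change of GLG2 was the smallest of the 10 and had the smallest standard error, and its 3 LGD libraries lay within 27.4 to 32.3 CPM.

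The glycogen synthase genes changed most by fold. GSY2 had 107, 115 and 619 CPM in LGD, against 1855, 1843 and 1973 CPM in WTD, and GSY1 51.1, 52.3 and 301 CPM in LGD, against 815, 845 and 972 CPM in WTD. In both genes LGD replicates 1 and 2 were far below replicate 3, and replicate 3 was below every WTD library. GSY2 was 6.86-fold lower (log2 -2.78 ± 0.70, adjusted p 0.0219 by edgeR) and GSY1 6.62-fold lower (log2 -2.73 ± 0.72, adjusted p 0.0250). The branching enzyme gene GLC3 had 82.2, 80.3 and 364 CPM in LGD, against 772, 772 and 768 CPM in WTD (log2 fold change -2.16 ± 0.60, adjusted p 0.0294). GAC1 had 58.5, 61.7 and 169 CPM in LGD, against 223, 221 and 177 CPM in WTD. Its LGD replicate 3 nearly reached the lowest WTD library, and the log2 fold change of -1.13 ± 0.41 was not called (adjusted p 0.0688).

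The genes of glycogen breakdown were not called. GPH1 had 164, 158 and 2231 CPM in LGD, against 2259, 2275 and 1628 CPM in WTD, and GDB1 119, 111 and 430.1 CPM in LGD, against 592, 606 and 508 CPM in WTD. For GPH1, LGD replicate 3 stood above WTD replicate 3, and the log2 fold change was -1.30 ± 1.00 (adjusted p 0.339 by edgeR). For GDB1 it was -1.40 ± 0.52 (adjusted p 0.0741).

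The count depended on replicate 3 of LGD. Within replicates 1 and 2 the median log2 CPM difference of the 10 genes was -2.66, and within replicate 3 it was -0.89. TPS2, GLG1 and GLG2 were called in 6 of 6 fits that each left out 1 library, with adjusted p of at most 0.0338, 0.0234 and 0.0159. GLC3, GSY1 and GSY2 were called in 1 of those 6 fits, the one without LGD replicate 3, in which all 10 were called. In the other fits their adjusted p reached at most 0.0807, 0.0725 and 0.0645. Without its replicate 3 a group keeps only the closely alike replicates 1 and 2, so its spread is small and calls can rise for any gene. The share of all genes called in fits without 1 library is not given, here or below. Counts from those fits therefore cannot be set against it. With replicates 1 and 2 summed into 1 library, 0 of the 10 were called (6 at an unadjusted p under 0.05), where 0.718% of all genes were called lower. For summed fits the share of all genes at an unadjusted p under 0.05 is not given, here or below. Counts of the 10 at that threshold in those fits therefore cannot be weighed.

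Ethanolamine, from which yeast makes phosphatidylethanolamine without Psd1, was added to ask whether it changes the mutant. For the 10 genes LGE and LGD overlapped without exception, and 0 were called by edgeR (0.225% of all genes were). At an unadjusted p under 0.05 there were 0 of the 10 (9.62% of all genes), and DESeq2's Wald test called 0 (2.71% of all genes). GSY2 had 767, 779 and 110.2 CPM in LGE, against 107, 115 and 619 CPM in LGD. The libraries crossed over: LGE replicates 1 and 2 were high and replicate 3 low, and LGD the reverse, and in each group it was replicate 3 that was nearest to the other group across all genes. Within replicates 1 and 2 all 10 genes were higher in LGE, with a median log2 CPM difference of 2.01, and within replicate 3 all 10 were lower, with -1.95. GPH1 gave the widest contrast, 3.22 in replicates 1 and 2 and -3.65 in replicate 3.

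**Figure D2:**
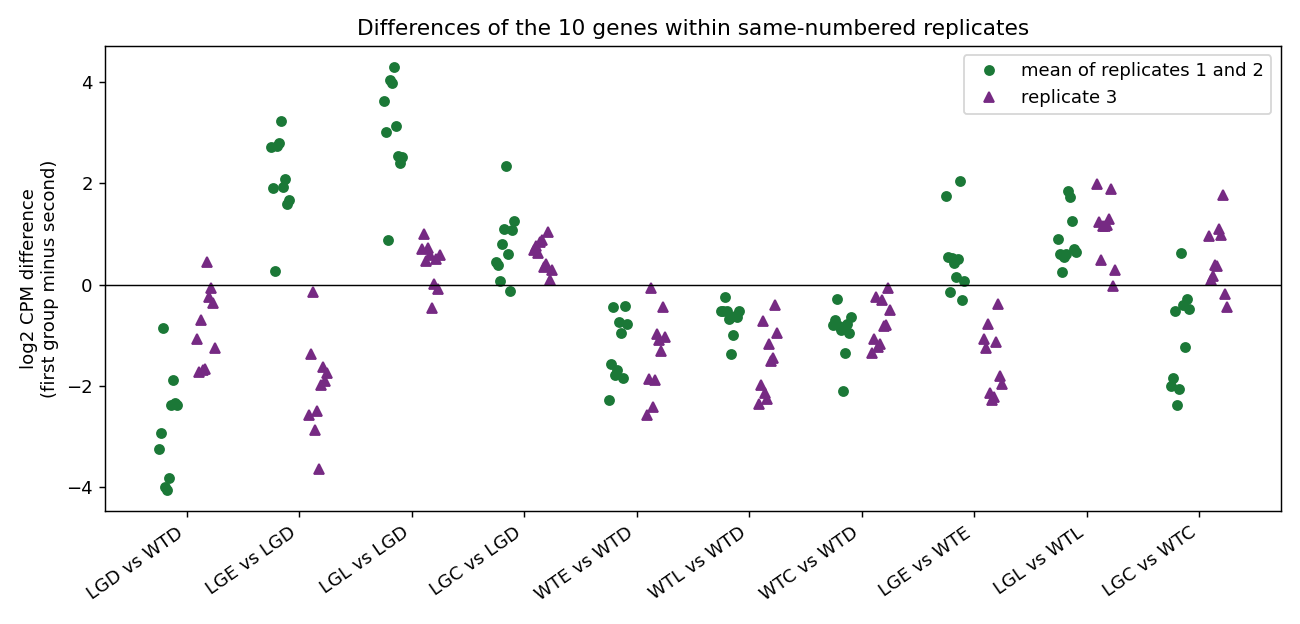
Difference of log2 CPM of each of the 10 genes, first-named group minus second, for 10 pairwise comparisons, within the mean of replicates 1 and 2 (circles) and within replicate 3 (triangles). In LGE vs LGD the circles have a median of 2.01 and the triangles of -1.95, while in WTE vs WTD both lie below 0, with medians of -1.27 and -1.21.

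Lyso-phosphatidylethanolamine with tergitol was the other source of phosphatidylethanolamine. TPS2, GLG1, GLG2 and GAC1 were higher in LGL than in LGD, 4 of the 10, against 5.82% of all genes called higher. All 10 log2 fold changes were positive, with a median of 1.83 (0.0059 over all genes tested). GAC1, the phosphatase-targeting subunit, had 332, 363 and 239 CPM in LGL, against 58.5, 61.7 and 169 CPM in LGD, a log2 fold change of 1.69 ± 0.43 (adjusted p 0.0429 by edgeR). GLG1 had 173, 193 and 116 CPM in LGL, against 22.4, 22.7 and 58.0 CPM in LGD, with 2.22 ± 0.41 (adjusted p 0.0240). For both genes every LGL library was above every LGD library.

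TPS2 had 2442, 2411 and 1495 CPM in LGL, against 428, 423 and 997 CPM in LGD, a log2 fold change of 1.78 ± 0.39 (adjusted p 0.0330 by edgeR). GLG2 had 52.7, 56.3 and 44.2 CPM in LGL, against 27.4, 32.3 and 32.0 CPM in LGD, with 0.74 ± 0.14 (adjusted p 0.0265). Of the genes without a call, GSY2 had 1765, 1742 and 925 CPM in LGL, against 107, 115 and 619 CPM in LGD. Its groups did not overlap and its log2 fold change was 2.39 ± 0.72 (adjusted p 0.0649). In 8 of the 10 genes LGL and LGD did not overlap (18.4% of all genes lay higher without overlap), and the other two were TPS1 and GPH1. For the 10 genes the median log2 CPM difference was 3.07 within replicates 1 and 2 and 0.54 within replicate 3. Leaving out LGD replicate 3 gave 10 called genes, leaving out LGL replicate 3 gave 4, and leaving out any 1 of the other 4 libraries gave 0. Summing replicates 1 and 2 also gave 0 (7 at an unadjusted p under 0.05).

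Choline, which feeds phosphatidylcholine synthesis, gave 0 called genes of the 10 between LGC and LGD, as of all genes (0.0% by edgeR). At an unadjusted p under 0.05 there were 0 of the 10 (14.5% of all genes), and DESeq2's Wald test called 0 (4.8%). GPH1 had 825, 802 and 2819.8 CPM in LGC, against 164, 158 and 2231 CPM in LGD. In both groups replicate 3 was several times above replicates 1 and 2, and same-numbered libraries differed in one direction. Across all genes too, libraries of LGC and LGD with the same number shared their departures from the mean of their group. As replicates 1 and 2 are closely alike, this largely repeats the contrast of replicate 3 with them. It cannot show that same-numbered libraries were paired. In a fit blocked on that number, 7 of the 10 were called higher in LGC (TPS2, GLG1, GSY1, GSY2, GLC3, GPH1 and GDB1), against 11.0% of all genes. In that fit GPH1 had a log2 fold change of 1.69 (adjusted p 0.0447 by edgeR) and GSY2 of 1.03 (adjusted p 0.00569). The block takes the closely alike replicates 1 and 2 as separate pairs. With these summed, 0 of the 10 were called and 0 had an unadjusted p under 0.05 (adjusted p at least 0.921, and 0.0% of all genes called higher). Without LGC replicate 3 and without the block, 6 of the 7 genes, all but TPS2, had a log2 fold change below 0. The median log2 CPM difference was 0.71 within replicates 1 and 2 and 0.65 within replicate 3.

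In the control strain all 3 supplements went with lower levels of the 10 genes. In WTE, WTL and WTC every library of every one of the 10 genes lay below every WTD library, as for 21.9%, 21.5% and 22.0% of all genes. These comparisons share the 3 WTD libraries, so they are not independent of one another.

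With ethanolamine, 7 of the 10 were called lower in WTE than in WTD (TPS2, GLG1, GSY1, GSY2, GAC1, GLC3 and GDB1), against 11.0% of all genes. GLC3 had 163, 156 and 129 CPM in WTE, against 772, 772 and 768 CPM in WTD, 5.10-fold lower (log2 -2.35 ± 0.13, adjusted p 0.000113 by edgeR). GLG1 had 59.6, 56.4 and 53.4 CPM in WTE, against 171, 176 and 194 CPM in WTD (log2 -1.65 ± 0.088, adjusted p 0.000113). By p-value GLG1 ranked first and GLC3 next of 6170 genes tested. All libraries of WTE lay close together for both genes.

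GAC1 had 61.1, 62.5 and 70.6 CPM in WTE, against 223, 221 and 177 CPM in WTD (log2 -1.66 ± 0.12, adjusted p 0.000223 by edgeR). GSY2 had 574, 577 and 533 CPM in WTE, against 1855, 1843 and 1973 CPM in WTD (log2 -1.73 ± 0.14, adjusted p 0.000276). The trehalose gene TPS1 had 1741, 1768 and 1493 CPM in WTE, against 2347, 2383 and 2029 CPM in WTD, and was not called (log2 -0.42 ± 0.16, adjusted p 0.103). The 7 called genes were called in 6 of 6 fits that left out 1 library. In a fit blocked on the replicate number GPH1 was called as well (log2 -0.80, adjusted p 0.00312, against 16.2% of all genes called lower). In one fit of all 24 libraries 1 of the 10 was called, GLG1 (adjusted p 0.0427), against 4.51% of all genes, and GLC3 had an adjusted p of 0.0545. With replicates 1 and 2 summed, 5 remained (GLG1, GSY1, GSY2, GAC1 and GLC3), against 2.62% of all genes called lower. The median log2 CPM difference was -1.27 within replicates 1 and 2 and -1.21 within replicate 3.

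With lyso-phosphatidylethanolamine and tergitol, 4 of the 10 were called lower in WTL than in WTD (TPS1, TPS2, GPH1 and GDB1), against 5.92% of all genes. GPH1 had 865, 888 and 720.4 CPM in WTL, against 2259, 2275 and 1628 CPM in WTD (log2 fold change -1.31 ± 0.17, adjusted p 0.00775 by edgeR). It was called in 6 of 6 fits without 1 library, GDB1 in 4, TPS1 in 2 and TPS2 in 1, with adjusted p of at most 0.0879, 0.137 and 0.105. GSY2 had 1168, 1153 and 415 CPM in WTL, against 1855, 1843 and 1973 CPM in WTD, with WTL replicate 3 far below the others and no call (adjusted p 0.101). Summing replicates 1 and 2 gave 0 called genes of the 10 (6 at an unadjusted p under 0.05). DESeq2's Wald test on all 6 libraries called 8, against 9.89% of all genes called lower. Leaving out WTL replicate 3 gave 9 called genes, and leaving out replicate 1 or 2 of either group gave 1 or 2. Over the 10 genes the median log2 CPM difference was -0.57 within replicates 1 and 2 and -1.48 within replicate 3.

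With choline, 8 of the 10 were called lower in WTC than in WTD (all but TPS1 and GLG2), against 9.05% of all genes. GDB1 had 236, 230.4 and 288 CPM in WTC, against 592, 606 and 508 CPM in WTD (log2 -1.15 ± 0.13, adjusted p 0.00207 by edgeR). GSY2 had 995, 992 and 875 CPM in WTC, against 1855, 1843 and 1973 CPM in WTD (log2 -0.96 ± 0.11, adjusted p 0.00209). GPH1 had 518, 541 and 1326 CPM in WTC, against 2259, 2275 and 1628 CPM in WTD. Its WTC replicate 3 was above the other WTC libraries, and its call held in 1 of 6 fits without 1 library (adjusted p up to 0.127), that of TPS2 in 2 (up to 0.0821). The other 6 were called in 6 of 6. With replicates 1 and 2 summed, 0 were called (7 at an unadjusted p under 0.05), where 0.177% of all genes were. In one fit of all 24 libraries 0 were called (1 at an unadjusted p under 0.05), against 0.87% of all genes. Over the 10 genes the median log2 CPM difference was -0.81 within replicates 1 and 2 and within replicate 3.

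The strains were also compared within each supplement. With ethanolamine, 0 of the 10 were called between LGE and WTE by edgeR (0.836% of all genes). GAC1 was the 1 gene of the 10 with an unadjusted p under 0.05 (16.4% of all genes) and the 1 that DESeq2's Wald test called (7.53%). GAC1 had 257, 253 and 54.3 CPM in LGE, against 61.1, 62.5 and 70.6 CPM in WTE, where LGE replicates 1 and 2 were the high libraries and LGE replicate 3 the lowest of all 6. The median log2 CPM difference of the 10 genes was 0.47 within replicates 1 and 2 and -1.53 within replicate 3. Without LGE replicate 3, 5 of the 10 were called (GLG1, GSY1, GAC1, GLC3 and GDB1).

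With lyso-phosphatidylethanolamine and tergitol, GPH1 was the 1 gene of the 10 called higher in LGL than in WTL (1.18% of all genes). It had 3182, 3151 and 1617 CPM in LGL, against 865, 888 and 720.4 CPM in WTL, 3.26-fold higher (log2 1.70 ± 0.28, adjusted p 0.0452 by edgeR, and 0.262 at most without 1 library). GDB1 had 979.8, 1033 and 436 CPM in LGL, against 297, 306 and 179 CPM in WTL (log2 1.67 ± 0.37, adjusted p 0.0687). Both genes of glycogen breakdown, and also GLC3 and GAC1, had no overlap between the strains (15.6% of all genes). Libraries of LGL and WTL with the same number shared their departures from the mean of their group, which again cannot show pairing. A fit blocked on that number takes replicates 1 and 2 as separate pairs. In it 8 of the 10 were called higher, all but TPS1 and GLG2, against 12.1% of all genes. GAC1 then had a log2 fold change of 1.48 (adjusted p 0.00346) and GLC3 of 1.28 (adjusted p 0.0177). The median log2 CPM difference was 0.67 within replicates 1 and 2 and 1.16 within replicate 3. With replicates 1 and 2 summed, 0 were called (3 at an unadjusted p under 0.05). Without LGL replicate 3, 5 were called, without WTL replicate 3, 2, and without any 1 of the other 4 libraries, 0.

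With choline, 0 of the 10 were called between LGC and WTC by edgeR (16.6% of all genes). TPS2 was the 1 gene of the 10 with an unadjusted p under 0.05 (34.0% of all genes) and the 1 that DESeq2's Wald test called (26.0%). Without LGC replicate 3, 8 were called, all but TPS1 and GPH1. The median log2 CPM difference of the 10 genes was -0.88 within replicates 1 and 2 and 0.38 within replicate 3. GPH1 was higher in LGC in both, TPS1 and TPS2 lower in both, and the other 7 genes lower in replicates 1 and 2 and higher in replicate 3. It had 825, 802 and 2819.8 CPM in LGC, against 518, 541 and 1326 CPM in WTC. A fit blocked on the replicate number again took replicates 1 and 2 as separate pairs. In it GPH1 was higher (log2 0.75, adjusted p 0.0280 by edgeR, against 9.96% of all genes called higher). TPS2 was lower (log2 -0.50, adjusted p 0.0257 by edgeR, against 10.9% called lower). Summing replicates 1 and 2 left 0 of the 10 called, and 0 had an unadjusted p under 0.05 (adjusted p at least 0.510).

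Whether a supplement acted differently in the strains was tested as an interaction, the log2 change with the supplement in LG minus that in WT. For lyso-phosphatidylethanolamine and tergitol, 9 of the 10 genes had a positive interaction at an adjusted p under 0.05, all but GPH1, against 12.2% of all genes. The median over the 10 was 3.00 (-0.0096 over all genes tested). GSY2 had an interaction of 3.46 ± 0.88 (adjusted p 0.0155 by edgeR), GLG1 of 3.13 ± 0.57 (adjusted p 0.00423) and TPS2 of 2.44 ± 0.44 (adjusted p 0.00423). The interaction of GPH1 was 2.97 ± 1.13 (adjusted p 0.0751). It was positive for 10 of 10 genes within replicates 1 and 2, with a median of 3.83, and within replicate 3, with 1.75. Of the 9 genes, 8 were called in 12 of 12 fits without 1 library and TPS1 in 3 (adjusted p up to 0.0687). With replicates 1 and 2 summed, 0 were called (8 at an unadjusted p under 0.05), as of all genes (0.0%).

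For ethanolamine, GLG1 was the 1 gene of the 10 called, with an interaction of 2.57 ± 0.64 (adjusted p 0.0420 by edgeR; 2.8% of all genes were called in that direction). Without LGD replicate 3, 7 of the 10 were called, without LGE replicate 3, 8, and without any 1 of the other 10 libraries, 0. GLG1 was called in 2 of 12 fits without 1 library, those without LGD replicate 3 and without LGE replicate 3, with adjusted p up to 0.111 in the others. GLC3 had the largest estimate of the 10, 3.48 ± 1.01, with an adjusted p of 0.0709. The median was 3.70 within replicates 1 and 2 and -0.53 within replicate 3. For choline 0 of the 10 were called by edgeR (0.863% of all genes). TPS2 and GLG2 had an unadjusted p under 0.05 (26.2% of all genes), and DESeq2's Wald test called 1, TPS2 (11.7%). Without LGD replicate 3, 8 were called, all but GLG2 and GAC1. The choline interaction was positive for 10 of 10 genes within replicates 1 and 2 (1.76 in the median) and within replicate 3 (1.53).

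The ratio of 2 genes within a library does not depend on the library's scaling. GLC3 per length stood at 0.700, 0.690 and 0.555 of GSY2 in LGE, against 0.285, 0.271 and 0.242 in WTE. It stood at 0.584, 0.561 and 0.641 in LGL, against 0.452, 0.471 and 0.363 in WTL, and at 0.766, 0.698 and 0.588 in LGD, against 0.417, 0.419 and 0.390 in WTD. In these 3 media every mutant library had more GLC3 per GSY2 than every control library. With choline the strains overlapped, at 0.485, 0.444 and 0.516 in LGC and 0.447, 0.447 and 0.345 in WTC. GPH1 per GSY2, breakdown against synthesis, was 2.72, 2.60 and 1.95 in LGC, against 0.407, 0.426 and 1.18 in WTC, and 1.20, 1.07 and 2.82 in LGD, against 0.952, 0.965 and 0.645 in WTD. These did not overlap, and LGL did not overlap WTL either (1.41, 1.41 and 1.37 in LGL, against 0.579, 0.602 and 1.36 in WTL). With ethanolamine they did, at 1.52, 1.53 and 1.26 in LGE and 1.83, 1.87 and 1.21 in WTE. These are 2 of 6 ratios computed after earlier results were known, and they carry no test. The 2 synthase genes kept the narrowest ratio of the 6, GSY2 being 1.88 to 2.94 times GSY1 per length over the 24 libraries.

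**Figure D3:**
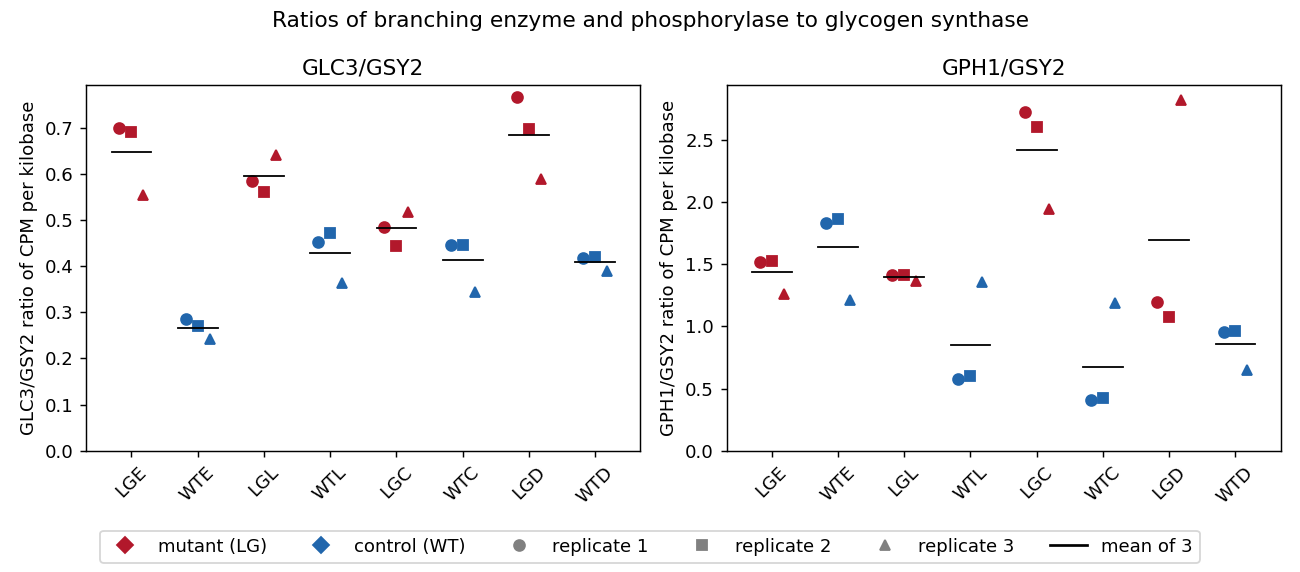
Ratio of CPM per kilobase within each library, GLC3 to GSY2 on the left and GPH1 to GSY2 on the right, by group, with the mutant in red left of the control in blue, a symbol for each replicate and a line at the mean of 3. GLC3 per GSY2 is higher in all LGE libraries (0.700, 0.690 and 0.555) than in all WTE libraries (0.285, 0.271 and 0.242).

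Other genes of the same pathways, taken from lists by function, were read in the same fits. In LGD against WTD, 17.3% of all genes were called lower. Of the other trehalose genes 5 of 5 were called lower, with a median log2 fold change of -0.76. These were TPS3 (-1.31 ± 0.28) and TSL1 (-1.56 ± 0.40), the regulatory subunits of the synthase complex, the neutral trehalases NTH1 (-0.66 ± 0.18) and NTH2 (-0.61 ± 0.11), and the acid trehalase ATH1 (-0.76 ± 0.20). Genes of synthesis and of degradation stood on the same side. Of 9 other glycogen genes, 3 were lower: the phosphatase subunits PIG1 (-0.66 ± 0.18) and PIG2 (-0.68 ± 0.21), and PCL8 (-0.59 ± 0.14), a cyclin of the kinase Pho85 that acts on glycogen synthase. The median of the 9 was -0.59.

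Of 6 genes that supply UDP-glucose, 3 were lower in LGD: the glucokinase GLK1 (-1.86 ± 0.47), the phosphoglucomutase PGM2 (-2.46 ± 0.75) and UGP1 (-2.00 ± 0.57), which makes UDP-glucose. The other 3 (HXK1, HXK2 and PGM1) were not called. As above, 17.3% of all genes were called lower in LGD against WTD, and the share called higher is not given. Of 9 regulators, 4 were lower, the kinases SNF1 (-0.66 ± 0.093), PSK1 (-0.95 ± 0.20) and YAK1 (-1.57 ± 0.39) and the transcription factor GIS1 (-1.01 ± 0.20), and 1 was higher, the stress transcription factor MSN2 (0.44 ± 0.12). In the interaction with lyso-phosphatidylethanolamine and tergitol the counts were 5 of 5 higher among trehalose genes, 5 of 9 among glycogen genes, 4 of 6 for UDP-glucose supply and 4 of 9 among regulators. Of all genes, 12.2% were called higher in that interaction. PIG2 (2.09 ± 0.30, adjusted p 0.00190), YAK1 (2.43 ± 0.44, adjusted p 0.00423) and PSK1 (1.30 ± 0.24, adjusted p 0.00486) had the smallest p there. In WTE against WTD, 1 of 5, 2 of 9, 2 of 6 and 3 of 9 were lower in the same order of lists. Of all genes, 11.0% were called lower there, and the share called higher is not given. YAK1 (-1.09 ± 0.12, adjusted p 0.00102) was first by p, PIG2 (-0.96 ± 0.14, adjusted p 0.00283) was lower too, and MSN2 (0.75 ± 0.10, adjusted p 0.00178) was higher. Of the 9 glycogen genes, 1 was higher as well.

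In each of the remaining comparisons these lists gave fewer calls than in LGD against WTD. In LGL against LGD, 3 of 5 trehalose genes, 5 of 9 glycogen genes, 0 of 6 genes of UDP-glucose supply and 2 of 9 regulators were higher. Of all genes, 5.82% were called higher. The smallest p there belonged to PIG2 (1.49 ± 0.26), NTH2 (0.63 ± 0.12) and GLC8 (1.14 ± 0.24), whose product modulates the phosphatase Glc7. In WTL against WTD, 1 of 5, 1 of 9, 3 of 6 and 2 of 9 were lower in that order of lists, with YAK1 (-0.81 ± 0.11), PSK1 (-0.55 ± 0.083) and TPS3 (-0.78 ± 0.13) first by p. There 5.92% of all genes were called lower. In WTC against WTD, 2 of 5, 3 of 9, 2 of 6 and 2 of 9 were lower and 1 glycogen gene was higher, with PGM2 (-1.18 ± 0.17), YAK1 (-0.62 ± 0.10) and IGD1 (-0.58 ± 0.094), whose product inhibits Gdb1, first by p. The share of all genes called lower was 9.05% there, and the share called higher is not given. In LGL against WTL, PIG2 (1.44 ± 0.19), YAK1 (0.89 ± 0.14) and the hexokinase gene HXK1 (1.19 ± 0.20) were higher, and in LGC against WTC the stress transcription factor gene MSN4 (-0.68 ± 0.11) was lower. Of all genes, 1.18% were called higher in the former comparison and 16.6% in either direction in the latter. SNF1 (0.95 ± 0.15) had a positive interaction with ethanolamine, where 2.8% of all genes were called in that direction. In LGE against LGD, LGC against LGD, LGE against WTE and the choline interaction 0 genes of these 4 lists were called by edgeR (3, 1, 1 and 13 of the 29 genes had an unadjusted p under 0.05). Of all genes, 0.225%, 0.0%, 0.836% and 0.863% were called in that order. An unadjusted p under 0.05 was held by 9.62%, 14.5%, 16.4% and 26.2% of all genes.

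The 10 genes moved together across libraries. Pearson correlations of log2 CPM over the 24 libraries ran from 0.632 (TPS1 with GAC1) to 0.994 (GSY1 with GSY2) among pairs of the 10. Among 5788 other genes with a mean of at least 50 counts, those most like the mean of the 10 over the 8 group means were YAK1 (r = 0.996), YKL162C (0.991), CMK1 (0.985), YIM1 (0.984) and SNF3 (0.984). Over the 24 single libraries the same measure was 0.983 for YAK1 and 0.726 for YKL162C. These correlations are descriptions over libraries that share their depth, scaling and replicate structure.

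Markers of the general stress response and of ribosome biogenesis were read in the same libraries. The 18 stress markers summed to 4635, 4653 and 20994 CPM in LGD, against 18777, 18704 and 10837 CPM in WTD. Of the 18, 6 were called lower, against 17.3% of all genes, and 1 higher. The 18 ribosome biogenesis markers summed to 5840.4, 5952 and 2735 CPM in LGD, against 1794, 1847 and 2506 CPM in WTD, and 14 of 18 were called higher. The share of all genes called higher there is not given here, and the markers of both lists are not named. In both sums LGD replicate 3 stood apart from LGD replicates 1 and 2. In LGE the stress markers summed to 15697, 15753 and 11447 CPM and the ribosome biogenesis markers to 3064, 3034 and 5052 CPM, with replicate 3 again apart. Sums weigh abundant markers most. The median over the stress markers of log2 CPM minus the marker's mean over the libraries was 0.24, 0.25 and -1.01 in LGE. It was -1.43, -1.38 and 0.24 in LGD. In the interaction with lyso-phosphatidylethanolamine and tergitol, 8 of 18 stress markers were called higher, against 12.2% of all genes. There 16 of 18 ribosome biogenesis markers were called lower, and the share of all genes called lower is not given here. In WTE against WTD the stress markers had a median log2 fold change of 0.064, with 5 lower (11.0% of all genes) and 1 higher, while the 10 genes had -1.32. In LGC against WTC it was 0.71 for the stress markers, of which 1 was called higher and 1 lower, and -0.39 for the 10 genes. In LGE against WTE it was -0.49 for the stress markers and 0.052 for the 10 genes. In every other comparison both medians had the same sign. They were -1.03 and -1.68 in LGD against WTD, and 1.19 and 1.83 in LGL against LGD. In the interaction with lyso-phosphatidylethanolamine and tergitol they were 1.60 and 3.00. No marker of these lists was at 0 in any library. The part of growth state or stress in the levels of the 10 genes was not tested.

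**Figure D4:**
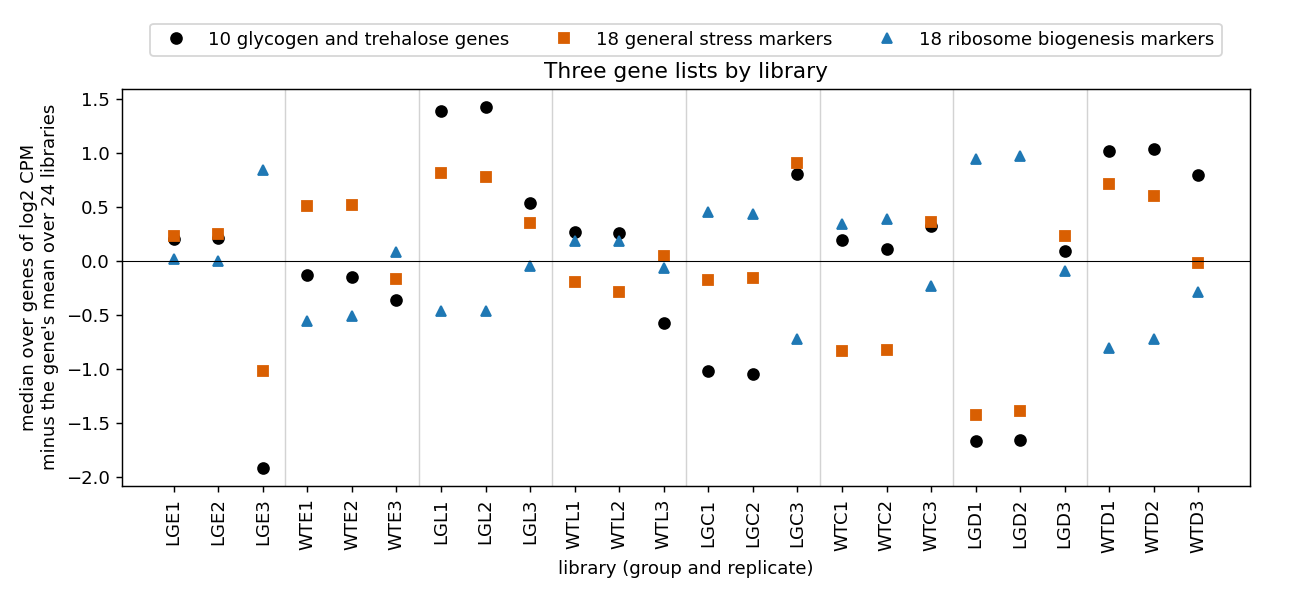
Median, over the genes of each of 3 lists, of log2 CPM minus the gene's mean over 24 libraries, for each library, with the mutant group left of the control group for each medium. The 10 glycogen and trehalose genes stand at -1.66, -1.65 and 0.10 in LGD replicates 1 to 3, and the 18 ribosome biogenesis markers at 0.94, 0.98 and -0.085.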

How the data were processed

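Per the labels' protocols, RNA came from a hot phenol extraction, and libraries followed the standard Illumina procedure. The submitters' processing notes name CASAVA, STAR 2.5, HTSeq 0.6.1 and DESeq2. Strandedness, genome build and annotation are not given in the sources used here. The deposited read counts are whole numbers per gene, per the file headers. The deposited normalized signal, FPKM, log2 fold changes and p-values of the authors were not used. The 7 tables were joined by gene identifier. Libraries in several tables had 0 differing counts. The coordinates of 5915 of 5924 identifiers matched to R64 had the same start and end there, and 6109 of 6114 single-exon coding genes had a start and a stop codon at the deposited position, so upstream windows were read from R64.

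Each pairwise comparison was fitted on its 6 libraries and each interaction on its 12, over all genes, by the quasi-likelihood F test of edgeR 4.0.16 in R 4.3.3, using TMM, filterByExpr and Benjamini-Hochberg adjustment at 0.05. CPM used TMM-scaled library sizes over 24 libraries, and log2 CPM a prior count of 2. Alternatives were DESeq2's size factors, no filter, DESeq2 1.42.0's Wald test, the replicate number as a block, replicates 1 and 2 summed, all 24 libraries in one fit, and each library left out. The differences by replicate were added after the data were seen. Departures from the group mean correlated across genes, between libraries of the same number, at -0.54 to 0.64. They did so above 0.1 for all 3 numbers in 4 comparisons: WTE vs WTD, LGL vs WTL, LGC vs WTC and LGC vs LGD. Departures within a group cancel out, and replicates 1 and 2 are closely alike. The 3 numbers therefore largely repeat a single contrast, replicate 3 against the others. This check cannot show that same-numbered libraries were paired. The numbers come from the labels. The tests were tried on simulated counts of independent libraries with a dispersion of 0.03 and 200 genes changed by 1 on the log2 scale. In the layout of LGD vs WTD, edgeR recovered 91.5% of these and DESeq2 91.0%. For the ethanolamine interaction they recovered 53.0% and 57.5%. Of the unchanged genes, edgeR called 14 and DESeq2 24 in the layout of LGD vs WTD. In the interaction edgeR called 4 and DESeq2 14. The simulation lacks the closeness of replicates 1 and 2 and the distance of replicate 3, so it cannot vouch for the calls here. All 10 genes are always named. Of the other pathway genes, those called in LGD vs WTD are named, and at most 3 elsewhere. The members and lists were chosen with earlier results of these data known.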

Additional observations from a re-analysis of the deposited data

Results flagged for a closer look

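The change with a supplement differed between the strains, by a test of the interaction with edgeR at an adjusted p under 0.05, in these cases. With lyso-phosphatidylethanolamine and tergitol the interaction (log2, mutant minus control) was 1.92 for TPS1, 2.44 for TPS2, 3.13 for GLG1, 1.12 for GLG2, 3.37 for GSY1, 3.46 for GSY2, 2.51 for GAC1, 3.23 for GLC3 and 3.03 for GDB1. With ethanolamine it was 2.57 for GLG1. In the first case every one of the 9 genes was lower in WTL than in WTD in all 3 control libraries and had a positive difference between LGL and LGD in the means. For GLG1 with ethanolamine, LGE was above LGD in replicates 1 and 2 and below it in replicate 3. With replicates 1 and 2 summed into 1 library, 0 of the 10 genes were called in either interaction. Their adjusted p by edgeR was at least 0.162 with lyso-phosphatidylethanolamine and tergitol and at least 0.680 with ethanolamine. In the former 0.0% of all genes were called higher. Summing also leaves fewer libraries, and the parts of this and of the closeness of replicates 1 and 2 were not told apart.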

How the results depend on the processing

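Directions of the 10 genes were kept with DESeq2's size factors, without a filter, with DESeq2's Wald test and with all 24 libraries in one fit. Counts of called genes moved under several alternatives. With replicates 1 and 2 summed the count was 0 in each pairwise comparison except WTE vs WTD (5) and in all 3 interactions. With the replicate block it was 0 in LGL vs LGD and WTL vs WTD, 7 in LGC vs LGD, 1 in WTC vs WTD, 8 in LGL vs WTL and 2 in LGC vs WTC. For the interactions with the block it was 0 with ethanolamine and 1 with choline. In WTE vs WTD, where same-numbered libraries deviated together, the block gave 8 genes, adding GPH1, and in LGD vs WTD 6. In comparisons whose numbers did not deviate together, a call lost under the block says nothing of the size of an effect. DESeq2's Wald test gave 8 in LGD vs WTD, LGL vs LGD and WTL vs WTD, and 9 in WTE vs WTD and WTC vs WTD. Its 8 in LGD vs WTD included TPS1 (adjusted p 0.00422) and GAC1 (adjusted p 0.0135), which edgeR did not call. DESeq2 gives some genes no adjusted p, and these count as not called, as GPH1 in LGD vs WTD. The Wald test gave 8 for the interaction with lyso-phosphatidylethanolamine and tergitol, where the genes without a call had no adjusted p. It gave 3 in LGL vs WTL and for the ethanolamine interaction, and 1 in LGE vs WTE, LGC vs WTC and the choline interaction. All 24 libraries in one fit gave 7 in LGD vs WTD, 9 in LGL vs LGD and 1 in WTE vs WTD. That fit gave 0 in WTL vs WTD, WTC vs WTD and LGL vs WTL, and 2 for the ethanolamine interaction. For several of these counts the share of all genes is not given here. DESeq2's size factors gave 0 in LGL vs WTL.

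Leaving out single libraries gave counts from 3 to 10 in LGD vs WTD, 0 in LGE vs LGD, from 0 to 10 in LGL vs LGD, 0 to 1 in LGC vs LGD, 7 to 10 in WTE vs WTD, 1 to 9 in WTL vs WTD and 6 to 9 in WTC vs WTD. Between strains they ran from 0 to 5 with ethanolamine, 0 to 5 with lyso-phosphatidylethanolamine and tergitol and 0 to 8 with choline. For the interactions they ran from 0 to 8, from 8 to 10 and from 0 to 8, in the same order. In LGE vs LGD all were 0, and in the other 12 the highest count came without a replicate 3 library.

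Median log2 CPM differences by replicate moved as well. From replicates 1 and 2 they were 3.07 in LGL vs LGD, -0.57 in WTL vs WTD, -0.81 in WTC vs WTD and 3.70 for the ethanolamine interaction. From replicate 3 they were -0.89 in LGD vs WTD, -1.95 in LGE vs LGD, 0.54 in LGL vs LGD, -1.21 in WTE vs WTD, -1.48 in WTL vs WTD and -0.81 in WTC vs WTD. Between strains replicate 3 gave -1.53 with ethanolamine and 0.38 with choline, and for the interactions -0.53 with ethanolamine and 1.75 with lyso-phosphatidylethanolamine and tergitol.

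Signs turned in these cases, none of which was called in the fits on all libraries without the block. In LGE vs LGD, summing gave -0.49 for GPH1 and -0.14 for TPS1 (log2 fold change), and leaving out libraries gave GPH1 from -0.16 to 2.73. In LGC vs LGD the range over left-out libraries was from -0.65 to 1.72 for GLC3, from -0.20 to 1.22 for GLG1, from -0.57 to 2.22 for GSY1, from -0.22 to 2.27 for GSY2, from -0.052 to 3.20 for GPH1, from -0.32 to 1.41 for GDB1 and from -0.80 to 1.34 for GAC1, with the low end without LGC replicate 3 and the high end without LGD replicate 3. In LGE vs WTE the block gave -0.043 for GLG1, -0.32 for GSY1 and -0.040 for GDB1, and summing -0.064, -0.13 and -0.0055 for the same genes. Leaving out libraries there gave from -0.12 to 0.59 for GLG1, from -0.20 to 0.64 for GSY1, from -0.10 to 0.62 for GDB1, from -0.36 to 0.46 for GSY2, from -0.51 to 0.35 for GPH1 and from -0.62 to 0.11 for TPS2, highest without LGE replicate 3. In LGC vs WTC the block gave -0.33 for GAC1, and leaving out libraries from -1.16 to 0.72 for GAC1 and from -0.55 to 0.55 for GDB1, lowest without LGC replicate 3. The choline interaction of GAC1 ran over left-out libraries from -0.033 to 2.14, lowest without LGC replicate 3. The cause was not tested. Each of the 10 genes had at least 452 counts in every library.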

Other observations

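Ratios between genes of the same step also varied by library. GLG1 per GLG2, the glycogenins, per length, was 0.507, 0.434 and 1.12 in LGD, against 1.92, 2.02 and 2.30 in WTD, with every mutant library below every control library. It was 0.612, 0.564 and 1.24 in LGC, against 1.28, 1.68 and 1.30 in WTC, again without overlap. In the other media the means stood the other way, at 1.43, 1.49 and 0.478 in LGE, against 0.892, 0.901 and 0.663 in WTE, and at 2.03, 2.12 and 1.62 in LGL, against 1.48, 1.78 and 0.954 in WTL, and the groups overlapped in both. TPS2 per TPS1, phosphatase against synthase, was narrower and stood between 0.348 and 0.647 over the 24 libraries. GDB1 per GPH1, debranching enzyme against phosphorylase, was 0.426, 0.413 and 0.113 in LGD, against 0.154, 0.157 and 0.183 in WTD. LGD replicates 1 and 2 were above all WTD libraries and LGD replicate 3 was below them. IGD1, whose product inhibits Gdb1, was picked after its values were seen and had 417, 432 and 181 CPM in LGL, against 32.3, 32.1 and 125 CPM in LGD, with no overlap. None of these ratios was tested.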
